A study of Mus musculus with 26 samples.

Results

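The genes described here are 8 markers of the epicardium and of mesothelium, found by their symbols among the 24421 genes of the count tables: Wt1, Msln, Upk3b, Upk1b, Krt19, Krt8, Krt18 and Lrrn4. All 8 were present in each of the 26 libraries' tables. The libraries were bulk RNA-seq of cardiac stromal cells from mice on a C57BL/6 background (B6.129S4-Pdgfratm11(EGFP)Sor/J, PDGFRa H2BEGFP+), in which a histone-tagged green fluorescent protein is expressed from the Pdgfra locus. Every group carried this reporter, and every sort kept GFP positive cells without CD45 (leukocytes) or CD31 (endothelium) and split them by the surface protein Sca-1, encoded by Ly6a. Undamaged hearts gave 5 Sca-1 positive and 4 Sca-1 negative libraries. The injured hearts, in which the LAD (the left anterior descending branch of the coronary arteries) had been tied off, gave 2 libraries per gate at day 14, and 4 positive and 3 negative ones at day 28. Day 7 gave 1 library per gate and 4 (1A, 1B, 4A and 4B) whose gate the labels do not give. The labels used here give no age. The sort rested on the Pdgfra reporter, CD45, CD31 and Sca-1, and on no mesothelial protein. Whether each library stands for an animal of its own is not stated in the labels, and p-values then measure only the spread between these libraries, which may in part be technical.

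The epicardium is the mesothelial sheet that covers the heart. During development some of its cells lose their epithelial character, enter the heart wall and give rise to fibroblasts and mural cells, and Wt1, a zinc finger transcription factor, is a main regulator of this layer. Wt1 is low in most of the adult epicardium and returns after injury to the heart. The other 7 genes belong to the epithelial side of mesothelium: uroplakins and mesothelin sit at the cell surface, keratins 8, 18 and 19 form the intermediate filaments of simple epithelia, and Lrrn4 is a leucine-rich repeat membrane protein used as a mesothelial marker. The comparison therefore asked whether Wt1 moved with the epithelial genes or apart from them.

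Wt1 (ENSMUSG00000016458.14) lies on the plus strand of GRCm38 chromosome 2 at 105126529 to 105173616. Lrrn4 (ENSMUSG00000043110.2) lies on the same chromosome at 132868305 to 132880891, on the minus strand. Msln is on chromosome 17 (25748613 to 25754378, minus), Upk3b on chromosome 5 (136038496 to 136046487, plus) and Upk1b on chromosome 16 (38773184 to 38800328, minus). The type I keratin Krt19 is on chromosome 11 (100140810 to 100148665, minus). The partner keratins Krt8 (101996698 to 102004482, minus) and Krt18 (102028180 to 102032027, plus) are neighbours on chromosome 15. Values are for whole genes, exons together.

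Of the 8 genes, 4 had a promoter entry in the RefSeq table for GRCm38.p6, and the 250 bases before RefSeq's start of each of these 4 are shown. They were not chosen by their levels. Over the 26 libraries Lrrn4 and Upk3b were the members most like Wt1, and Krt8 and Krt18 the least alike on that measure. Capitals mark the core letters CATTCC, or GGAATG on the other strand, of the motif of TEAD factors, which act in the Hippo pathway and in the epicardium. The letters stood 241 bases before the start of Upk3b and 196 bases before that of Lrrn4, and occurred in neither keratin promoter. Of 32851 promoters in the table, 12.6% held them on either strand. RefSeq's starts of Krt8, Krt18 and Lrrn4 lie inside the GENCODE spans above, so those windows run into them.
Upk3b, chr5:136038246-136038495, plus strand: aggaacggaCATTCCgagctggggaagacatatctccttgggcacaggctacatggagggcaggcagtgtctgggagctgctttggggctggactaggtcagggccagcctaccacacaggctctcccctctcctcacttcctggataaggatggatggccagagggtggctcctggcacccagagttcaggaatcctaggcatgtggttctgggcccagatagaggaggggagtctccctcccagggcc
Lrrn4, chr2:132880863-132881112, minus strand: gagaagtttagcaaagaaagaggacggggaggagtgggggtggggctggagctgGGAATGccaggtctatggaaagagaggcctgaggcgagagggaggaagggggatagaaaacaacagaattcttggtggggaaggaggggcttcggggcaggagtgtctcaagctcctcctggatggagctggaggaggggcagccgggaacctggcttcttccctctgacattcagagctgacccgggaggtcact
Krt8, chr15:102004343-102004592, minus strand: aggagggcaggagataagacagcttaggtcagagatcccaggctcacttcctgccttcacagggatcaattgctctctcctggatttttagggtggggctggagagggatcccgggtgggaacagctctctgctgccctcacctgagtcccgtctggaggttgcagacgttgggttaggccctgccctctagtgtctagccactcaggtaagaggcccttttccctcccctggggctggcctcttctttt
Krt18, chr15:102027966-102028215, plus strand: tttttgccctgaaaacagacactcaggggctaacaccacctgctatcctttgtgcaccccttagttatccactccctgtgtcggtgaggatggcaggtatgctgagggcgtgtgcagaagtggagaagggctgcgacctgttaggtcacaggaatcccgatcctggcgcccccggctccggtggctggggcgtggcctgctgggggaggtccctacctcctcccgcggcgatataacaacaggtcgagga

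The Egr and Wt1 type motif GCGGGGGCG, present on either strand in 2.57% of all promoters, was in none of the 4 windows. The Ets core ACTTCCTG (2.69% of all promoters) was in those of Upk3b and Krt8, and the GATA core AGATAA (9.99%) in that of Krt8. The GC box GGGCGG (32.7%) and the TATA box TATAAA (12.4%) were in none. A match of letters is a description of the sequence, not a binding site.

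Libraries held 6792786 to 48836726 counts assigned to genes, and levels below are CPM, counts relative to a library size scaled by the trimmed mean of M-values (TMM). A gene with 3 counts was at 0.0614 to 0.442 CPM, depending on the library. Ly6a, which encodes the sorted protein, was at 280 to 1284 CPM in the positive and 18.8 to 91.9 CPM in the negative undamaged libraries, and Pdgfra was at 342 to 810 CPM in all 26 libraries. Among markers of other cells, the summed level of 6 endothelial genes had a median of 104 CPM in undamaged hearts (47.3 to 174) and of 26.5, 36.4 and 23.8 CPM at days 7, 14 and 28. The 6 leukocyte genes had medians of 8.07 CPM (6.05 to 24.4) in undamaged hearts and 23.6 CPM (18.8 to 40.8) at day 7, and 1 of them was at 0 in every library at both times. The 4 adipocyte genes had medians of 1.34 CPM (0.541 to 7.69) in undamaged hearts and 14.8 CPM (2.45 to 44.7) at day 14, where Wt1 was highest, and of 0.688 and 0.283 CPM at days 7 and 28. At day 14, 2 of the 3 of them tested were called higher than in undamaged hearts in the Sca-1 positive gate, where 1.61% of all genes were. In the negative gate it was 1 of 3, where 3.02% of all genes were. Between the gates at day 14 none of the 3 was called. In the fit by time 1 of the 4 was tested, and it was not called at day 14. The part of these cells, and of the Xist level that exceeded 20 CPM in 4 day 7 and 2 day 14 libraries, in the results was not tested beyond the values given beside them. Of the undamaged libraries, the 3 with the fewest detected genes (negative A6 and B7, positive B7) held 12325 to 12977 genes, against 14041 to 16013 in the libraries after ligation.

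Wt1 was the member with the clearest signal in undamaged hearts, and it was still low there. The Sca-1 positive undamaged libraries held 0.54 (E1), 0.703 (E3), 1.77 (F3), 0.0593 (A6) and 0 CPM (B7). The Sca-1 negative ones held 1.09 (E5), 1.54 (F3), 0.081 (A6) and 1.54 CPM (B7). Both libraries of code A6 had a single Wt1 count each, so low values occurred in both gates.

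After ligation Wt1 stood above the highest undamaged library in all 17 libraries, though the lowest of them, at 1.8 CPM, was close to the undamaged 1.77 CPM. The share of all genes without overlap between undamaged hearts and a later time was not counted, here or for the genes below. At day 7 the labelled libraries held 1.8 CPM (positive) and 7.99 CPM (negative), and libraries 1A, 1B, 4A and 4B held 2.97, 16.6, 24 and 32.3 CPM. Day 14 had the highest values, with 90.7 CPM in the negative and 52 CPM in the positive library of code D1, and 31.1 and 17.4 CPM in those of code D9. At day 28 the positive libraries held 9.47 (E2), 6.45 (F2), 10.8 (B4) and 22.4 CPM (B6), and the negative ones 11.9 (E4), 7.86 (B4) and 32 CPM (B6). Day 28 values thus lay within the range of day 7, and 2 of the 4 day 14 libraries were above every day 7 library. In bulk samples, more cells that express a gene and more RNA of it per cell cannot be told apart.

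**Figure D1:**
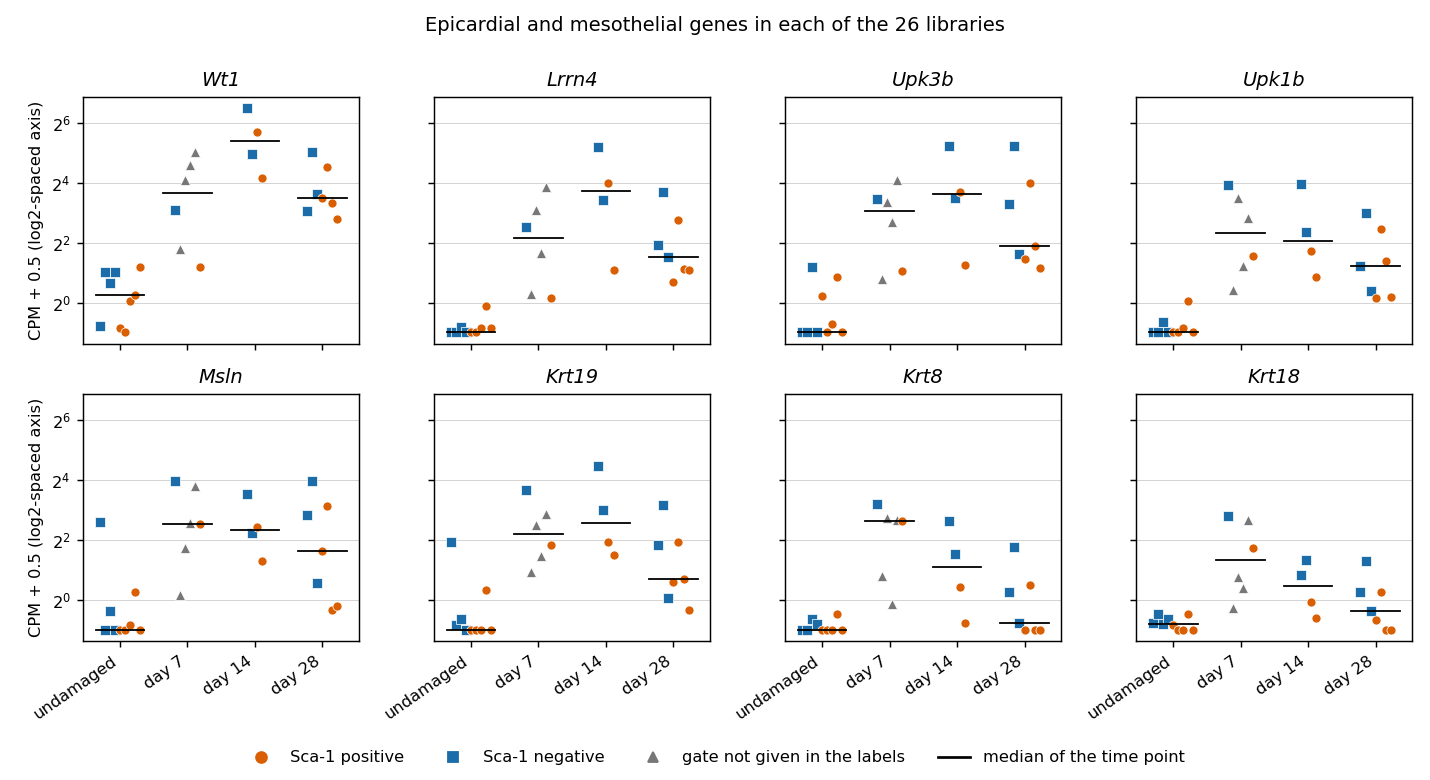
Level of each of the 8 genes in each library (y axis, CPM plus 0.5, log2-spaced; x axis, time after ligation), with colour and shape for the gate and a black bar for the median of a time point. Among the 7 genes other than Wt1, undamaged libraries above 1 CPM are Sca-1 negative A6 for Msln (5.51 CPM) and Krt19 (3.32 CPM), and Sca-1 negative E5 (1.77 CPM) and positive E3 (1.3 CPM) for Upk3b, while Wt1, Lrrn4 and Upk1b lie above all undamaged libraries at days 7, 14 and 28.

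Lrrn4 was at 0 in 5 of 9 undamaged libraries and reached at most 0.432 CPM in the others. Its lowest, median and highest levels were 0.623, 3.98 and 13.9 CPM at day 7, and 1.12, 2.34 and 12.6 CPM at day 28. At day 14 it held 36 and 15.5 CPM in the negative and positive libraries of code D1, and 10.3 and 1.63 CPM in those of code D9. The undamaged group did not overlap with any later time, as for Wt1.

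The uroplakins, membrane proteins first described in the bladder lining and used as markers of mesothelium, were also near 0 before ligation. Upk1b was at 0 in 6 of 9 undamaged libraries (at most 0.541 CPM), ran from 0.84 through a median of 4.51 to 14.9 CPM at day 7, and from 0.622 through 1.84 to 7.52 CPM at day 28. Its day 14 levels were 15.1 (D1 negative), 2.78 (D1 positive), 4.62 (D9 negative) and 1.3 CPM (D9 positive). Upk1b did not overlap with undamaged hearts at any later time, whereas Upk3b overlapped at days 7 and 28. Upk3b was at 0 in 5 of 9 undamaged libraries and reached 1.77 CPM in Sca-1 negative E5. It ran from 1.23 through 7.91 to 16.7 CPM at day 7 and from 1.72 through 3.25 to 36.9 CPM at day 28, and day 14 held 37.1, 12.6, 10.9 and 1.89 CPM in the order just given.

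Msln, which encodes the cell surface glycoprotein mesothelin, had 1 high undamaged library. Sca-1 negative A6 held 5.51 CPM from 68 counts, against at most 0.703 CPM in the other 8. Msln ran from 0.616 through 5.32 to 15.1 CPM at day 7 and from 0.283 through 2.61 to 15.4 CPM at day 28, and held 11.1, 4.97, 4.2 and 1.98 CPM at day 14 (same order). Because of that undamaged library only 2 of 6, 1 of 4 and 3 of 7 libraries were above the whole undamaged group at days 7, 14 and 28.

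Krt8, a type II keratin, was at 0 in 6 of 9 undamaged libraries, with 0.216 CPM at most, and ran from 0.403 through 5.76 to 8.67 CPM at day 7. At day 14 it held 5.68, 0.845, 2.4 and 0.0815 CPM, and at day 28 it was at 0 in 3 of 7 libraries, with a median of 0.0901 and a maximum of 2.87 CPM. Krt8 was therefore high at day 7 and within its undamaged range in 4 of 7 day 28 libraries. Krt18, its filament partner, had medians of 0.0683, 2.01, 0.863 and 0.27 CPM at undamaged, day 7, day 14 and day 28, and 2 of 7 day 28 libraries at 0. The undamaged and day 7 groups overlapped for neither Krt8 nor Krt18. Krt19 held 3.32 CPM in undamaged Sca-1 negative A6 and at most 0.757 CPM in the other undamaged libraries. It ran from 1.4 through 4.09 to 12.3 CPM at day 7 and from 0.286 through 1.13 to 8.47 CPM at day 28, with 21.8, 3.28, 7.5 and 2.36 CPM at day 14.

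Levels of different genes were compared as CPM per kilobase of exon. In undamaged hearts Wt1 averaged 0.131 ± 0.113 CPM per kb (SD, n = 9), and all 8 genes lay between 0.0181 and 0.256, with spreads that overlapped throughout. At day 7 they lay between 1.4 ± 1.38 (Lrrn4) and 2.99 ± 2.71 (Upk1b), again without neighbours that differed beyond their spread (n = 6). At day 14 Wt1 came first with 7.72 ± 5.16 CPM per kb, followed by Krt19 (4.71 ± 4.84), Upk3b (4.43 ± 4.27) and Lrrn4 (4.27 ± 3.93), and Krt18 came last with 0.682 ± 0.589 (n = 4). At day 28 Upk3b (2.9 ± 3.63) and Wt1 (2.33 ± 1.51) led, and Krt18 (0.375 ± 0.489) and Krt8 (0.335 ± 0.535) were last (n = 7). The order of the genes per length thus ran from no clear order at day 7 to the keratin 8 and 18 pair at the bottom on days 14 and 28, though neighbouring genes never differed beyond their spread.

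Against undamaged hearts (9 libraries), all 8 genes were higher at day 7 (6 libraries) at an adjusted p under 0.05 in edgeR's quasi-likelihood test. Of the 13392 genes tested, 11.5% were called higher. Apart from Wt1, the 8 genes passed the low-count filter of this fit over the 26 libraries only through libraries after ligation. All 8 were also chosen with earlier results of these data known. Their calls against undamaged hearts, at this and later times, are therefore no independent comparison with the shares over all genes. Wt1 rose by 4.12 ± 0.63 log2 units (± standard error; adjusted p = 2.61e-05). The largest fitted differences were those of Krt8 (6.48 ± 1.10, adjusted p = 9.26e-05), Upk1b (6.13 ± 0.89) and Lrrn4 (6.08 ± 0.88), followed by Krt18 (4.98 ± 0.90), Upk3b (4.17 ± 0.90), Krt19 (3.55 ± 0.95) and Msln (3.39 ± 1.02, adjusted p = 0.0169). The median of the 8 was 4.58, beside -0.0363 over all genes. Since most members were near 0 counts in undamaged hearts, the size of these fitted differences depends on the prior count of the fit, and the levels above are the safer guide. Krt8, Upk1b, Lrrn4 and Wt1 kept this call in all 25 alternatives run. Msln lost it without the labelled Sca-1 negative day 7 library (2.99, adjusted p = 0.0521), on prefixed codes alone (2.07, adjusted p = 0.256) and on libraries with low Xist (1.31, adjusted p = 0.709). On the libraries with low Xist 4 of the 8 genes were called, Upk3b (3.70, adjusted p = 0.0533), Krt19 (2.85, adjusted p = 0.234) and Krt18 (3.02, adjusted p = 0.152) being lost as well. Krt19 was also lost on prefixed codes alone (2.30, adjusted p = 0.182), and Upk3b with gate as a term (3.36, adjusted p = 0.0593). The fit with gate as a term left out the 4 day 7 libraries whose labels give no gate. The gate term and the missing libraries cannot be told apart in it.

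At day 14 (4 libraries) 7 of the 8 genes were higher than in undamaged hearts, against 5.84% of all genes. Lrrn4 rose by 7.70 ± 0.92 (adjusted p = 1.5e-06), Upk1b by 6.06 ± 0.93, Wt1 by 5.86 ± 0.68 (adjusted p = 1.01e-06), Krt8 by 5.43 ± 1.13, Upk3b by 5.21 ± 0.95, Krt19 by 4.30 ± 1.01 and Krt18 by 3.43 ± 0.93 (adjusted p = 0.0182). Msln had 3.03 ± 1.08 (adjusted p = 0.0812). It passed the test without undamaged Sca-1 negative A6 (5.39, adjusted p = 0.000664). Leaving out Sca-1 negative D1 ended the calls of Krt19 (3.29, adjusted p = 0.0765) and Krt18 (3.28, adjusted p = 0.0597), and leaving out Sca-1 negative D9 ended that of Krt18 (2.76, adjusted p = 0.113). The 4 libraries carry 2 codes. With libraries of one code summed at every time (an alternative added after the data were seen, with 2 units at day 14 and 6 in undamaged hearts), 6 genes passed, Krt18 being lost (3.50, adjusted p = 0.0698).

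At day 28 (7 libraries) 5 of the 8 genes were higher, against 3.45% of all genes. Lrrn4 rose by 5.77 ± 0.87, Upk1b by 4.90 ± 0.87, Upk3b by 4.61 ± 0.89, Wt1 by 4.14 ± 0.62 (adjusted p = 1e-04) and Krt8 by 3.70 ± 1.08 (adjusted p = 0.0416). Msln (2.88 ± 0.99, adjusted p = 0.0884), Krt18 (2.60 ± 0.88, adjusted p = 0.0825) and Krt19 (2.54 ± 0.92, adjusted p = 0.109) did not pass. Wt1 and Lrrn4 passed in all 27 alternatives and Upk1b in all 26. Krt8 passed in 11 of 26, was lost with libraries of one code summed (3.39, adjusted p = 0.112), and it was lost when any 1 of 10 libraries was left out: Sca-1 positive E1, F3, A6 or B7 or Sca-1 negative F3, A6 or B7 of the undamaged group, or Sca-1 negative B4 or B6 or Sca-1 positive B6 of day 28 (the lowest value was 2.47, adjusted p = 0.236, without negative B6). Without undamaged negative A6, Msln (5.23, adjusted p = 0.00109) and Krt19 (4.37, adjusted p = 0.00305) passed.

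**Figure D2:**
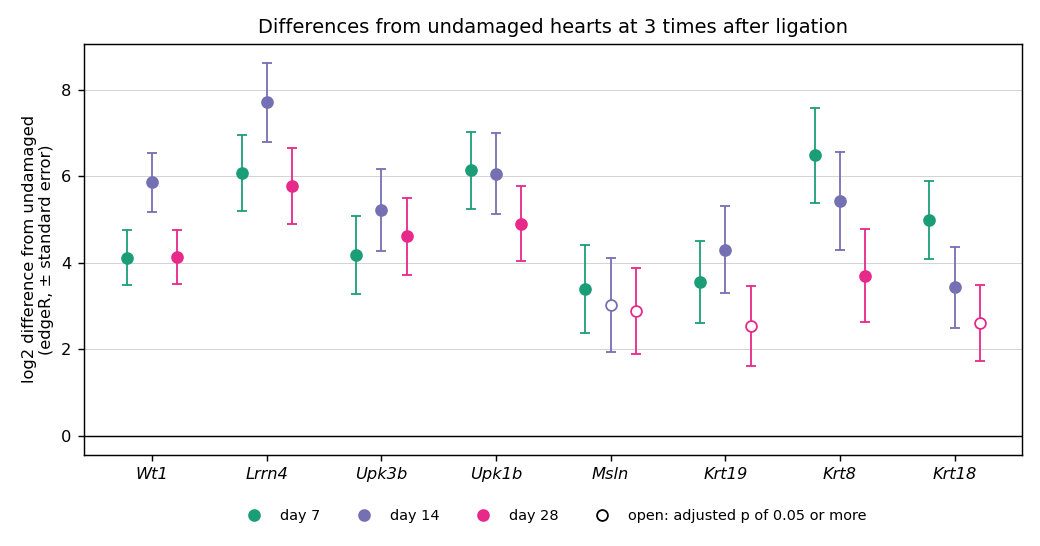
Fitted log2 difference from undamaged hearts for each gene (y axis, points with standard error bars) at days 7, 14 and 28, with open points for an adjusted p of 0.05 or more. Wt1, Lrrn4, Upk3b and Upk1b have filled points at all 3 times, Wt1 standing at 5.86 at day 14 and 4.14 at day 28, and Msln, Krt19 and Krt18 have open points at day 28.

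The times after ligation were also compared with each other, both comparisons with day 14 having been added after the data were seen. None of the 8 genes was called by edgeR between day 28 and day 7, where 11.6% of all genes were called in either direction, while 2 had an unadjusted p under 0.05 and DESeq2 called 1. Wt1 differed by 0.02 ± 0.59 (adjusted p = 0.987), and the sign of this value changed with the processing. Krt8 had -2.78 ± 0.97 (adjusted p = 0.0608) and Krt18 -2.38 ± 0.86 (adjusted p = 0.0715). Both passed the test without day 28 Sca-1 negative B6 (-4.01, adjusted p = 0.0164, and -3.24, adjusted p = 0.027), and Krt8 also without day 7 library 4A (-3.03, adjusted p = 0.0428). Between day 14 and day 7 edgeR called none of the 8 and DESeq2 none, with 0.0149% of all genes called. Before adjustment Wt1 alone was under 0.05 in edgeR (1.75 ± 0.67, adjusted p = 0.374). Lrrn4 had 1.61 ± 0.79 (adjusted p = 0.553), Krt8 -1.06 ± 1.08 (adjusted p = 0.869) and Krt18 -1.55 ± 1.00 (adjusted p = 0.715). Upk3b (1.04 ± 0.95) and Krt19 (0.76 ± 1.04) were above 0 too, and Upk1b (-0.07 ± 0.86) and Msln (-0.35 ± 1.17) below it. The fitted values were thus above 0 for 4 genes and below 0 for 4, without a call. Between day 28 and day 14 all 8 fitted values were below 0, and edgeR and DESeq2 called none, against 3.18% of all genes called by edgeR. The 2 members with an unadjusted p under 0.05 were Wt1 (-1.73 ± 0.64, adjusted p = 0.147) and Lrrn4 (-1.92 ± 0.76, adjusted p = 0.178).

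Within a gate, Wt1 and Lrrn4 were called at days 14 and 28 in both gates, and Upk1b at both times in the negative gate. In the Sca-1 positive gate Wt1 rose by 5.82 ± 0.82 at day 14 (2 against 5 libraries; adjusted p = 0.000523 by edgeR) and by 4.30 ± 0.75 at day 28 (adjusted p = 0.00564). Lrrn4 rose by 6.29 ± 1.02 (adjusted p = 0.00169) and 4.60 ± 0.96 (adjusted p = 0.0211), and none of the other 6 genes passed at either time. The background shares called higher were 1.61% and 1.03%. The fitted values of the other 6 were above 0 as well. They ran from 2.37 ± 1.32 (Krt18) to 4.51 ± 1.59 (Msln) at day 14. At day 28 they ran from 1.76 ± 1.25 (Krt18) to 4.23 ± 1.47 (Msln). Of the 8 genes, 6 had an unadjusted p under 0.05 by edgeR and 3 were called by DESeq2 at each time. The day 28 call of Lrrn4 was lost without undamaged positive E1, F3 or A6 or day 28 positive B6 (adjusted p = 0.0514 to 0.0969), and its day 14 call without positive D1 (3.89, adjusted p = 0.17). Without undamaged positive E3, 4 genes were called at day 14.

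In the Sca-1 negative gate 4 of the 8 genes were called higher at day 14, where 3.02% of all genes were. At day 28 there were 3, with a background of 0.818%. An unadjusted p under 0.05 by edgeR was reached by 7 and 6 of the 8 at these times, and DESeq2 called 4 and 3. Wt1 rose by 5.79 ± 0.88 (adjusted p = 0.000663) and 3.98 ± 0.82 (adjusted p = 0.0183). Lrrn4 went from 1 count in the 4 undamaged negative libraries to 1240 counts in 2 libraries at day 14 and 257 in 3 at day 28. The ratios of pooled CPM were 1029 (95% interval for counting error alone, 184 to 40694) and 384 (68.3 to 15223), and the adjusted p were 0.000384 and 0.00464. Upk1b went from 2 counts to 537 and 145, ratios of 223 (61.4 to 1845; adjusted p = 0.00446) and 108 (29.4 to 903; adjusted p = 0.0337). Upk3b passed at day 14 (5.73 ± 1.45, adjusted p = 0.0294), and without negative D1 Upk3b (adjusted p = 0.307) and Upk1b (adjusted p = 0.0712) did not. Leaving out undamaged negative F3, A6 or B7 also ended the Upk3b call (adjusted p = 0.0634 to 0.0757). At day 28 the calls of Wt1 (3.17, adjusted p = 0.135) and Upk1b (5.06, adjusted p = 0.205) were lost without negative B6, that of Wt1 also without undamaged negative E5 (3.98, adjusted p = 0.0546), and that of Upk1b without any 1 of the 4 undamaged negative libraries (adjusted p = 0.0578 to 0.0935).

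Without a replicate block, none of the 8 genes was called between the gates in undamaged hearts or at days 14 and 28, and day 7, with 1 labelled library per gate, was not tested. The gate difference is given as Sca-1 positive minus negative. In undamaged hearts edgeR called 0 of 8 (1 with an unadjusted p under 0.05, 0 by DESeq2) against 3.1% of all genes, and Wt1 had -0.83 ± 0.82 (adjusted p = 0.688). Msln (-3.23 ± 1.47, adjusted p = 0.28) and Krt19 (-2.49 ± 1.35, adjusted p = 0.389) rested on negative A6, without which they were 0.71 and 1.12. With the shared replicate codes as a block these 2 genes passed (-7.66, adjusted p = 0.02, and -6.98, adjusted p = 0.0304), again through the pair of code A6, where Msln was at 0 CPM in the positive library.

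After ligation the fitted gate differences of all 8 genes were below 0, without a call. At day 14 they ran from -0.80 ± 0.93 (Wt1) to -3.14 ± 1.91 (Krt8), with a median of -1.99 beside -0.00336 over all genes, and 0 of 8 passed by edgeR at an adjusted or unadjusted p and by DESeq2, against 0.0507% of all genes called. At day 28 they ran from -0.51 ± 0.72 (Wt1) to -2.51 ± 1.50 (Krt8), with a median of -1.48 beside -0.0111, again with 0 of 8 by each count and 0.594% of all genes called. The change of the gate difference from undamaged hearts to day 14 or day 28 was called for none of the 8 (0 with an unadjusted p under 0.05, 0 by DESeq2; 0% of all genes called).

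Libraries that shared a code across the gates showed the same picture pair by pair. At day 14 all 8 genes were higher in the negative library of both D1 and D9. Wt1 was higher there by 0.80 and 0.82 on the log2(CPM + 0.5) scale, while the other 7 genes were higher by 0.91 to 2.56. At day 28 all 8 were higher in the negative library of B6 and 7 of 8 in that of B4, where Wt1 was 10.8 CPM in the positive and 7.86 CPM in the negative library. Wt1 therefore had the smallest difference of the 8 in each of these 4 pairs. The labelled day 7 pair did not follow this, with Wt1 higher by 1.88 and Krt8 by 0.57 in the negative library. The day 7 libraries without a gate in their labels are marked in the names of the deposited tables, 1A and 4A as positive and 1B and 4B as negative, and held 296, 334, 35.9 and 31.7 CPM of Ly6a. The sum of the 7 genes other than Wt1 was 6.39 and 19.3 CPM in 1A and 4A, and 44 and 69.2 CPM in 1B and 4B. Wt1 was 2.97 and 16.6 CPM in 1A and 1B, and 24 and 32.3 CPM in 4A and 4B. On the same log2 scale Wt1 had the smallest difference of the 8 between 4A and 4B. Between 1A and 1B it did not. There it differed more than Msln, Krt19, Krt8 and Krt18 (0.336 and 1.18 CPM), and less than Lrrn4 and both uroplakins. These 4 libraries were not placed in a gate for any average or test.

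**Figure D3:**
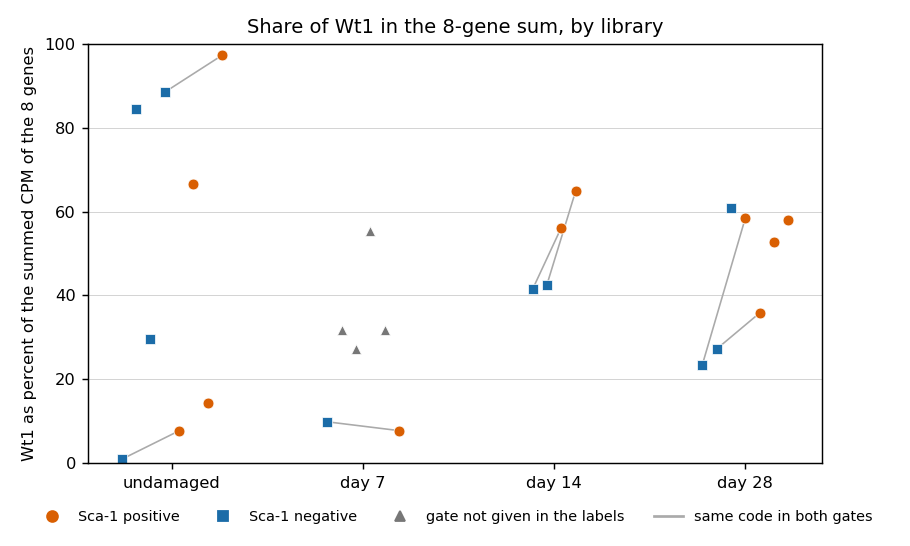
Wt1 as a percentage of the summed CPM of the 8 genes (y axis) in 25 libraries by time, with grey lines joining libraries of one code; undamaged Sca-1 positive B7, at 0 for all 8 genes, is left out. In the 2 day 14 pairs and the 2 day 28 pairs the positive library has the higher share, and in the labelled day 7 pair the shares are 7.74% and 9.84%.

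Whether Wt1 moved with the other 7 genes was read first from their sum. In undamaged hearts Wt1 did not follow that sum. Sca-1 positive F3 held 1.77 CPM of Wt1 and 0.0493 CPM of the others together, and Sca-1 negative A6 held 0.081 CPM of Wt1 and 8.91 CPM of the others, nearly all of it Msln and Krt19. After ligation both were present in every library. The sum of the other 7 genes ran from 6.39 to 73.2 CPM at day 7, 9.41 to 128 CPM at day 14 and 4.66 to 85.8 CPM at day 28. Wt1 made up 7.74% to 55.4% of the summed CPM of the 8 genes at day 7, 41.5% to 64.9% at day 14 and 23.4% to 60.8% at day 28. The lowest shares after ligation were those of the labelled day 7 pair, and all 3 letter-coded day 28 libraries lay between 52.8% and 60.8%. Within the pairs of codes D1, D9, B4 and B6 the share was 56.2% against 41.5%, 64.9% against 42.6%, 58.4% against 23.4% and 35.8% against 27.2% in the positive and negative library.

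**Figure D4:**
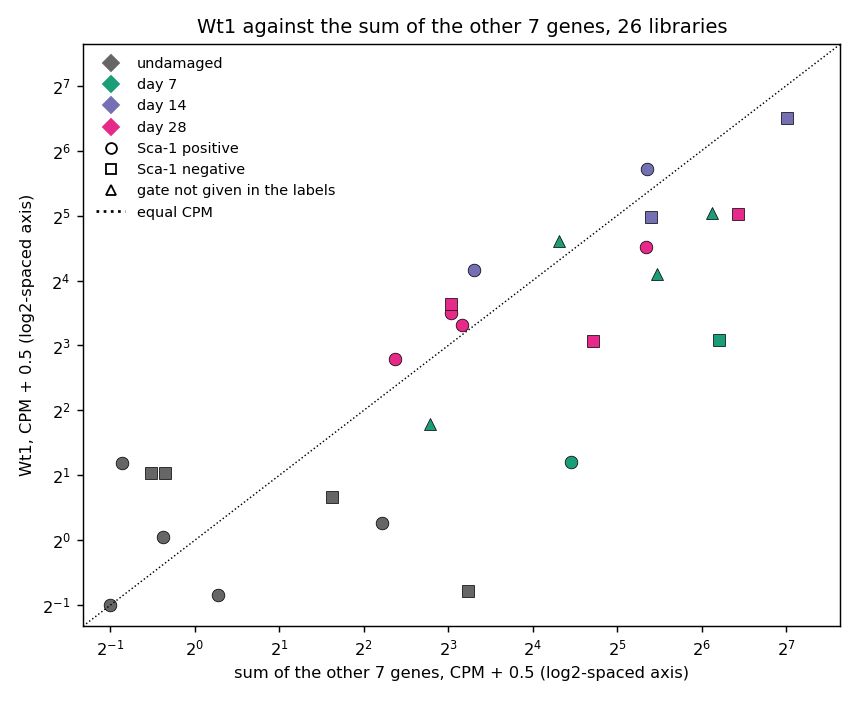
Wt1 (y axis) against the sum of the other 7 genes (x axis), both as CPM plus 0.5 on log2-spaced axes, for the 26 libraries; colour gives the time, shape the gate, and the dotted line marks equal CPM. Undamaged libraries scatter without order at the lower left. After ligation the highest sum and the highest Wt1 are both in day 14 Sca-1 negative D1 (128 and 90.7 CPM), but the order is not kept throughout. Day 28 negative B4 has 25.7 CPM of the others beside 7.86 of Wt1, and positive B4 7.71 beside 10.8. The labelled day 7 pair lies farthest below the line among libraries after ligation, with 73.2 and 21.5 CPM of the others beside 7.99 and 1.8 CPM of Wt1.

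Correlations of log2(CPM + 0.5) with Wt1 over the 26 libraries are given as a description, since the libraries share time points, may share hearts and differ in depth. Lrrn4 was most like Wt1, with a Pearson r of 0.927, the highest of 13391 genes. Upk3b followed with 0.874 (rank 13) and Upk1b with 0.807 (rank 46). Krt19 (0.726), Msln (0.681), Krt8 (0.539) and Krt18 (0.522) were less alike, and Krt18 ranked 834. Spearman's rho gave 0.926 for Lrrn4 and 0.648 for Krt18. Without the 2 libraries farthest from the median of Wt1, r was 0.927 for Lrrn4 and 0.472 for Krt18.

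When the mean of each time point was subtracted, r with Wt1 was 0.746 for Lrrn4, 0.647 for Upk3b and 0.522 for Upk1b, and between 0.304 and 0.349 for Msln and the 3 keratins. The 21 pairs among the other 7 genes had a median of 0.721 (0.599 to 0.9) on the same scale, and the 7 pairs with Wt1 a median of 0.349. With the mean of time and gate subtracted (20 libraries) the medians were 0.701 (0.574 to 0.929) among the other 7 genes and 0.54 (0.17 to 0.684) with Wt1, and the order changed, Krt8 (0.642) coming after Lrrn4 (0.684), and Msln (0.179) and Krt19 (0.17) last. The difference between the medians was not tested. Within the 9 undamaged libraries r with Wt1 lay between -0.367 and 0.348. At day 7 (6 libraries) it ran from -0.0819 (Krt8) to 0.863 (Upk3b), and at day 28 (7 libraries) from 0.738 to 0.852. The day 28 values rested on the pair of code B6: without the 2 libraries farthest from the median they lay between -0.221 and 0.0761.

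**Figure D5:**
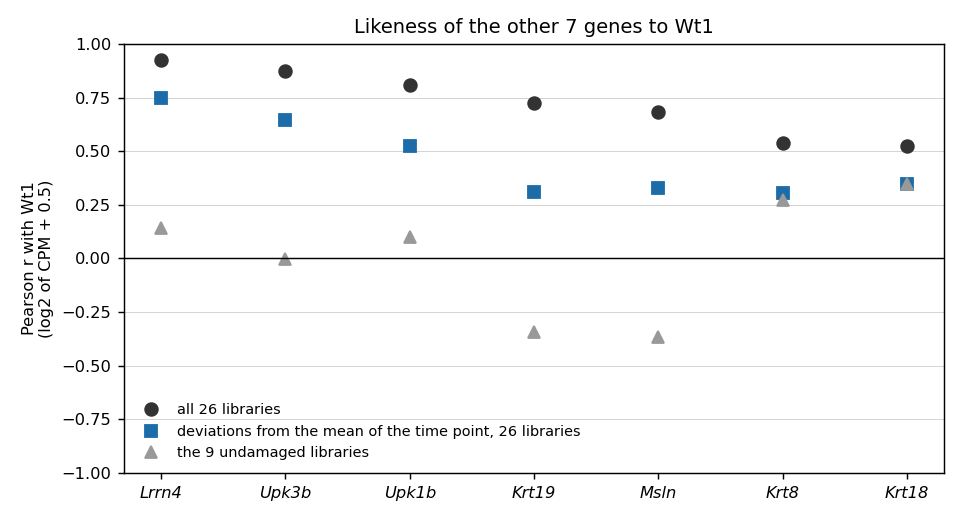
Pearson r with Wt1 (y axis) for the other 7 genes over all 26 libraries, over the deviations from the mean of each time point, and within the 9 undamaged libraries. Lrrn4, Upk3b and Upk1b are highest over all libraries (0.927, 0.874 and 0.807) and over the deviations, Krt8 and Krt18 are lowest over all libraries, and no gene exceeds 0.348 in undamaged hearts.

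Outside the 8 genes, those most like Wt1 over the 26 libraries, among 10217 genes with a mean log2 CPM of at least 2, were Ugt1a7c (r = 0.909), Col6a5 (0.895), Acp5 (0.889), Maf (0.882), Wnt4 (0.853) and Pdlim4 (0.848). Most like Upk3b were Tmem98 (0.826), Plscr1 (0.82), Wnt4 (0.815), Ugt1a7c (0.797), Mtss1 (0.785) and Col6a5 (0.784). Wnt4, a secreted Wnt ligand, averaged 2.82 ± 1.21 CPM in undamaged hearts (SD, n = 9), 17.9 ± 14.9 at day 7 (n = 6), 60.9 ± 46.7 at day 14 (n = 4) and 9.13 ± 7.32 at day 28 (n = 7). Col6a5, a collagen VI chain, went from 6.09 ± 6.13 to 40.2 ± 24.2, 449 ± 431 and 222 ± 123 CPM at the same times. Like Wt1, both had their highest mean at day 14. Ugt1a7c belongs to a family of genes with shared exons, so its reads cannot be assigned with certainty.

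Other surface and secreted genes of mesothelium and epicardium moved in part with the 8. Of 24 listed genes 22 were tested, with 6 higher and 3 lower at day 7. Day 14 had 10 higher and 0 lower, and day 28 had 4 and 3. Among all genes 11.5%, 5.84% and 3.45% were called higher and 11.2%, 3.14% and 1.94% lower at these times. The list medians were 0.47, 0.98 and 0.42, beside -0.0363, -0.03 and -0.000684 over all genes. The antisense transcript Wt1os, which starts next to Wt1 on the other strand, had no count in 9 undamaged libraries (3 counts over the group would be 0.0189 CPM) and 28, 184 and 15 counts at days 7, 14 and 28, at least 17.6-, 68.9- and 9.24-fold higher (adjusted p = 0.000569, 4.02e-05 and 0.0123). Wt1os and Wt1 do not overlap in the GENCODE M21 annotation, and the strand setting of the counts is not given in the sources used here. Slpi, a secreted protease inhibitor, averaged 0.075 ± 0.121 CPM in undamaged hearts and 11.3 ± 16.3 CPM at day 14 (adjusted p = 7.92e-05). The secreted chaperone Clu averaged 45.3 ± 22 and 924 ± 897 CPM (4.35 ± 0.56 log2 units, adjusted p = 5.28e-06), and the large membrane protein Pkhd1l1 0.532 ± 0.597 and 17.2 ± 16.5 CPM (adjusted p = 0.000245). Igfbp5 (-1.55 ± 0.28, adjusted p = 0.000192) and the podocyte and endothelial sialomucin Podxl (-1.94 ± 0.48, adjusted p = 0.00396) were lower at day 7.

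The transcription factors and retinoid enzymes of the epicardium did not move as one. Of 17 tested, 4 were higher and 5 lower at day 7, 4 and 6 at day 14, and 3 and 0 at day 28, with medians of -0.09, -0.10 and -0.05. The shares over all genes were 11.5% and 11.2%, 5.84% and 3.14%, and 3.45% and 1.94%. Bnc1, the zinc finger factor basonuclin 1 of several epithelia and mesothelium, rose from 0.0256 ± 0.056 CPM to 2.42 ± 1.83, 6.71 ± 5.97 and 1.9 ± 1.68 CPM (adjusted p = 7.73e-06, 1.2e-06 and 7.52e-05). Hoxa5 was at 0.256 ± 0.299 CPM in undamaged hearts and 14.6 ± 4.11 CPM at day 14 (5.82 ± 0.76, adjusted p = 6.13e-06). Bnc2 rose by 1.24 ± 0.24, 1.45 ± 0.26 and 0.77 ± 0.23 at the 3 times. In the other direction, Rarres2, which encodes the secreted protein chemerin, averaged 382 ± 85.1 CPM in undamaged hearts and 145 ± 29.7 CPM at day 7 (-1.40 ± 0.17, adjusted p = 1.63e-06). The heart factor Hand2 averaged 36 ± 9.31 and 18.1 ± 1.99 CPM (-0.99 ± 0.19, adjusted p = 0.000357). The retinaldehyde dehydrogenase Aldh1a1 was lower at day 14, with 555 ± 172 CPM in undamaged hearts and 238 ± 55.7 CPM then (-1.22 ± 0.26, adjusted p = 0.0024).

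Among keratins outside the 8 genes, 6 of 10 were tested and 2, 2 and 1 were higher at days 7, 14 and 28 (11.5%, 5.84% and 3.45% of all genes), with medians of 1.13, 1.61 and 1.20. Krt7, another simple epithelial keratin that is also in the surface gene list, averaged 0.0721 ± 0.0668 CPM in undamaged hearts, 1.58 ± 1.4 at day 7 (adjusted p = 0.000804), 1.42 ± 1.34 at day 14 (adjusted p = 0.00368) and 0.55 ± 0.67 at day 28. Krt14, a keratin of basal epidermis, had no count in undamaged hearts and 69, 52 and 19 counts at days 7, 14 and 28, at least 43.5-, 19.5- and 11.7-fold higher (adjusted p = 0.00096, 0.0102 and 0.0469), the last from 2 of 7 libraries. The 1 tested uroplakin of 4 outside the 8 genes was not called at any time.

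Of 17 genes reported as direct targets of Wt1, 16 were tested: 4 were higher and 6 lower at day 7, 2 and 3 at day 14, and 2 and 4 at day 28, with medians of -0.07, -0.07 and -0.10. The list does not separate activated from repressed targets, so these counts cannot show whether targets followed Wt1. Wnt4, a listed target, rose by 2.67 ± 0.50 (adjusted p = 0.000271), 4.44 ± 0.54 (adjusted p = 1.98e-06) and 1.71 ± 0.48 (adjusted p = 0.0352). Pdgfa, a platelet-derived growth factor chain, rose by 1.26 ± 0.23, 0.91 ± 0.25 and 1.15 ± 0.22. Cdh5, a listed target and also an endothelial marker, fell by 2.23 ± 0.40 at day 7 and 2.07 ± 0.38 at day 28, and it stands beside the drop of the summed endothelial markers from 104 to 26.5 and 23.8 CPM; their part in it was not tested. The shares of all genes called higher and lower were 11.5% and 11.2% at day 7, 5.84% and 3.14% at day 14, and 3.45% and 1.94% at day 28.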

How the data were processed

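RNA-seq counts per gene of 26 libraries were used as the authors deposited them, as raw counts in whole numbers. The submitters' processing notes name STAR, TopHat, Bowtie2, Cufflinks and bcl2fastq and the build mm10. The counting program, its strand setting and the annotation are not given in the sources used here. The 2 entries that name no gene held 5.53% to 18.7% (reads outside genes; 55.8% in day 28 Sca-1 positive E2) and 0.128% to 0.646% (ambiguous reads), and were left out of library sizes and tests. Gene totals of 6792786 to 48836726 counts limit precision as given with the 3-count levels.

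Counts were scaled by TMM and tested with edgeR 4.0.16 (quasi-likelihood, R 4.3.3) after its low-count filter, with Benjamini-Hochberg adjustment over all genes and a threshold of 0.05. A fit by time used 26 libraries and 13392 genes. A fit by time and gate used 20 libraries in 6 groups and 13812 genes, without day 7. Standard errors are the log2 difference divided by the root of F. The script was tested on simulated data. All 8 members passed the filter of both fits. In the fit by time, which asked for 4 libraries above its cutoff, 7 of them passed only through libraries after ligation. Upk1b, Krt8, Krt18 and Lrrn4 had no undamaged library above that cutoff. DESeq2 1.42.0, other size factors, no filter, left-out libraries, code families, libraries of one code summed, Xist and a replicate block were tried as alternatives. Gate as a term in the fit by time was another, on the 22 libraries with a labelled gate.

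In 7 pairs of libraries a code in the title recurs in both gates. Deviations from group means correlated at 0.184 to 0.412 in these pairs and at -0.412 to 0.389 between other codes, over 13812 genes. At day 14, with 2 libraries per gate, the deviations within a gate mirror each other, so 0.412 and -0.412 are the same value with its sign turned. Day 28 positive F2 and negative E4, of different codes, had 0.389, above the 0.184 of code A6. These values therefore do not show that the codes are pairs, and the block rests on the titles alone. The members and lists were chosen with earlier results of these data known. Named genes are the 8 members, at most 4 called genes per list and comparison by smallest p, and the 6 genes most like Wt1 and the 6 most like Upk3b. Positions are from GENCODE M21 (GRCm38) and promoters from RefSeq.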

Additional observations from a re-analysis of the deposited data

Results flagged for a closer look

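The groups looked at were Sca-1 positive and negative undamaged hearts, Sca-1 positive day 28, and day 7 as a whole, with 4 to 6 libraries each. In them 14 of 32 combinations of a group and a gene had 1 library whose gap to the nearest other library took up most of the group's range. None of the 14 was at day 7. The cutoff flags about 1 in 20 groups by chance if values are normally distributed. Many values here were at 0, so that rate need not hold, and genes of one library are not independent. In the Sca-1 positive undamaged group the library was E3 for 6 genes, with 0.703 CPM of Msln, 0.541 of Upk1b, 0.757 of Krt19, 0.216 of Krt8, 0.216 of Krt18 and 0.432 of Lrrn4. In the Sca-1 negative undamaged group A6 held 5.51 CPM of Msln and 3.32 CPM of Krt19, where the next libraries held 0.273 and 0.137 CPM. In the same group E5 held 1.77 CPM of Upk3b, 0.137 CPM of Upk1b and 0.0683 CPM of Lrrn4, the other 3 libraries being at 0 for these genes. In the Sca-1 positive day 28 group B6 held 15.6 CPM of Upk3b, 0.918 CPM of Krt8 and 6.31 CPM of Lrrn4, where the next libraries held 3.25, 0 and 1.7 CPM. Wt1 was in none of the 14 combinations.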

How the results depend on the processing

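Low undamaged counts and few libraries per gate limit the fold sizes and the gate tests. The cause of the changes below was not tested. With the replicate block 2 genes instead of 0 passed between the gates in undamaged hearts, and the block changed no call in the other gate comparisons. Codes are nested in time, so no block could be fitted between times. With libraries of one code summed, the time comparisons gave 8, 6 and 4 genes at days 7, 14 and 28. The day 7 libraries stayed apart in this fit, so its day 7 count does not bear on day 7 libraries that might belong together. Counts of genes called changed by over 1.5 times as follows. Libraries with low Xist alone gave 4 at day 7. Letter-coded libraries alone gave 2 (of 3 tested) at day 28. Prefixed libraries alone gave 1 in the Sca-1 positive gate at day 14 and 1 at day 28. Without both day 28 libraries of code B6 (chosen after the data were seen) each gate gave 1 at day 28, and day 28 against day 7 gave 2. Without the 3 undamaged libraries with the fewest genes (also chosen afterwards) the negative gate gave 0 at day 28, and day 28 against day 7 gave 2. DESeq2 gave 1 for the latter. Leaving out 1 library gave 0 to 2 for day 28 against day 7, 1 to 4 and 2 to 4 at day 14 in the positive and negative gates, and 1 to 3 in each gate at day 28.

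Signs turned in the following values. The undamaged gate differences of Msln and Krt19 were 0.45 and 1.39 without the 3 libraries with fewest genes, 0.83 and 1.75 in letter-coded libraries, and ran from -6.23 to 0.71 and -7.06 to 1.12 with 1 library left out. In letter-coded libraries those of Upk1b and Krt19 at day 28 were 0.67 and 0.24. With 1 library left out the gate difference of Wt1 ran from -1.80 to 0.18 at day 14 and -0.96 to 0.30 at day 28, and that of Upk1b from -1.66 to 0.62 at day 28. Wt1 at day 28 against day 7 was -0.01 with DESeq2, -0.06 in prefixed libraries, -0.62 without both B6 libraries, -0.12 with libraries of one code summed and -0.31 to 0.44 with 1 library left out. Krt18 at day 14 against day 7 was 0.20 with low Xist alone. The median r with Wt1, 0.726 over 26 libraries, was 0.349 for deviations from the time mean, 0.54 for those from the time and gate mean, 0.1 (rho 0.0198) within undamaged and 0.414 (rho 0.314) within day 7. Without the 2 libraries farthest from the median it was -0.105, -0.272 and -0.0915 within undamaged, day 7 and day 28.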

Other observations

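Genes of epithelial junctions, of which 11 of 24 listed were tested, moved in both directions beside the 8 markers. At day 7, 2 were higher and 3 lower, at day 14 2 and 1, and at day 28 1 and 0, with medians of 0.29, 0.14 and -0.18 log2 units. Over all genes the shares called higher at days 7, 14 and 28 were 11.5%, 5.84% and 3.45%, and those called lower 11.2%, 3.14% and 1.94%. The desmosomal cadherin Dsg2 averaged 0.184 ± 0.208 CPM in undamaged hearts (SD, n = 9), 1.99 ± 1.84 at day 7 (n = 6), 3.98 ± 5.22 at day 14 (n = 4) and 1.61 ± 2.11 at day 28 (n = 7), and was higher at each time by edgeR (adjusted p = 0.00895, 0.00397 and 0.0433). Perp, a desmosome-associated membrane protein, fell by 1.79 ± 0.47 at day 7 (adjusted p = 0.00665) and 2.24 ± 0.56 at day 14 (adjusted p = 0.0102). The desmosomal plaque protein Dsp fell by 2.28 ± 0.63 at day 7 (adjusted p = 0.01).

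Of 9 genes of the transition from epithelium to mesenchyme, 2 were higher and 1 lower at day 7, 1 and 0 at day 14, and 2 and 1 at day 28, with medians of 0.07, 0.01 and 0.18, beside the same shares over all genes. N-cadherin (Cdh2) went from 6.63 ± 2.08 CPM in undamaged hearts to 102 ± 30.7 at day 7, 43.3 ± 27.8 at day 14 and 29.2 ± 9.73 at day 28 (adjusted p = 5.5e-11, 2.68e-07 and 8.6e-06). Its mean was thus highest at day 7, whereas that of Wt1 was highest at day 14. Twist1 rose by 0.41 ± 0.13 at day 7 and 0.49 ± 0.12 at day 28, and Snai1 fell by 0.66 ± 0.20 at day 28 (adjusted p = 0.0432).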
